A study of Mus musculus with 12 samples.

Results

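Mybph (ENSMUSG00000042451) is 1 gene of the 51912 in a table of raw counts from mouse liver, and 1 of the 18098 that passed a filter on low counts. It was chosen by its counts in chow-fed livers, which were lower in Mlkl-/- than in wild-type animals, so that difference is described here and not tested. The table holds 12 livers in 4 groups of 3, which cross genotype (wild-type or Mlkl-/-) with diet. Diets were started at 8 to 9 weeks of age and were chow, called normal diet (ND), or high-fat diet (HFD), in which lipid gave 59% of the energy and fat made up 36%. The sample labels give 25 weeks of diet in all groups, whereas the series text gives 16 to 25 weeks, with fed animals picked for organ weights near the mean. The labels give the genotype as Mlkl-/- with no restriction to a cell type, and the sources used here give neither the deleted part nor strain or sex. RNA was read from the 3' ends of polyadenylated transcripts with the QuantSeq kit.

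MyBP-H, the product of Mybph, is a protein of the thick filament of skeletal muscle, related to the myosin-binding proteins C and built from immunoglobulin and fibronectin type III domains. In human lung cancer cells it has been described as a binder of nonmuscle myosin heavy chain and of the kinase ROCK1, which drive contraction of the cell cortex. It is not among the classical products of hepatocytes. MLKL is the pseudokinase that breaks the plasma membrane in necroptosis.

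Mybph lies on chromosome 1 of mm10, 134193448 to 134201232 on the plus strand, in the GENCODE M21 annotation. Its 2 transcripts have 11 and 10 exons and 1449 coding bases each, and in the first of them the last exon is wholly untranslated. The sequence around the start is shown because it is the end of the gene that its overlapping neighbour, described next, does not reach. It is the RefSeq stretch of 250 bases before and 50 after the start (GRCm38.p6, chr1:134193198-134193497, plus strand), with capitals on the E-box (CANNTG) whose first base lies 79 bases before the start and on the TATA stretch 38 bases before it.
Mybph promoter: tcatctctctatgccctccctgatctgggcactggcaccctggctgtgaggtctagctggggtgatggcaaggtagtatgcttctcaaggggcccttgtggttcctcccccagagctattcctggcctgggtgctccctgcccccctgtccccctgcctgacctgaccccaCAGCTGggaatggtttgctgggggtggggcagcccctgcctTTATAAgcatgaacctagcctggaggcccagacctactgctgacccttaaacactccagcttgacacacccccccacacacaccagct
An E-box on either strand is found in 72.3% of 32851 promoters of this length in the same table, and the letters TATAA on either strand in 24.9%. The capitals of the second stretch cover 2 overlapping matches, 1 per strand. The letters AGGTCA, a nuclear receptor half-site, matched 1 time, as they do at least 1 time in 16.3% of promoters. No match was found on either strand to TTGCNNAA (C/EBP, in 10.8% of promoters), TTCNNNGAA (STAT, 8.3%) or the MEF2 motif (3.69%). These matches are letters in a window and say nothing of binding.

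The 3' end of Mybph, where these libraries are read, lies inside another gene. Adora1 (ENSMUSG00000042429), which encodes the adenosine A1 receptor, runs on the minus strand from 134199223 to 134235431, and the gene bodies overlap by 2010 bases, tail to tail. Of the 2329 exonic bases of Mybph, 1162 (49.9%) are also exonic in Adora1, and so are 500 of its last 500 (100%). Of the last 500 exonic bases of Adora1, 500 lie within the body of Mybph but only 9 within its exons. Among the 684 distinct stretches of 30 bases in the last 500 bases of the Mybph transcripts, 631 occur in Adora1 transcripts on the opposite strand and 0 occur in any other gene on the same strand. The sources used here do not say whether the authors' counting used strand. Without strand, reads from Mybph and from Adora1 in the shared part cannot be told apart, so every value below counts reads assigned to Mybph and may include, or omit, reads of its neighbour.

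**Figure D1:**
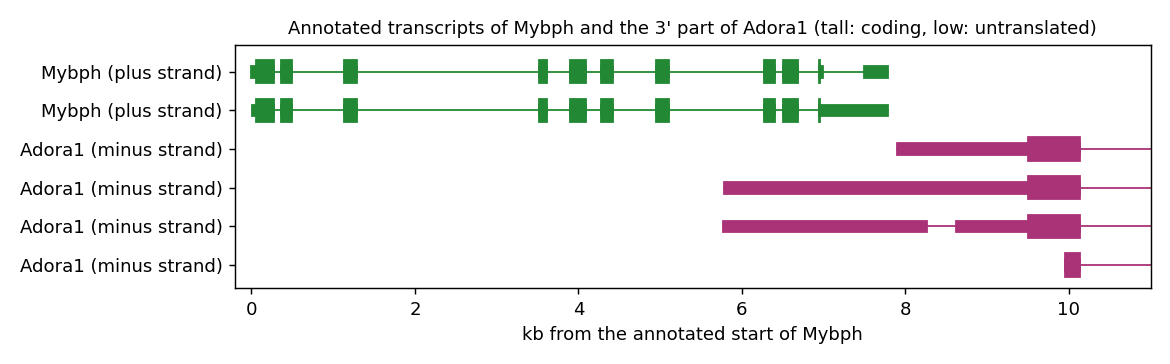
Annotated transcripts of Mybph and the 3' part of those of Adora1, drawn to scale against the distance in kb from the annotated start of Mybph, with tall boxes for coding and low boxes for untranslated exons. The last exons of both Mybph transcripts lie within the untranslated part of long exons in 2 of the 4 Adora1 transcripts, which run in the other direction.

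Library totals ran from 19435391 to 32120426 counts, and libraries of the same group differed by more than counting error. As a check of the labels, Mlkl had 72, 76 and 92 counts in the wild-type livers on ND, where Mlkl-/- livers had 16, 15 and 20. On HFD wild-type livers had 134, 252 and 88 Mlkl counts against 16, 9 and 34, so genotypes did not overlap on either diet. The 9 hepatocyte genes found among those listed, albumin among them, summed to between 71481 and 116121 raw CPM (each count over its library's total, on the CPM scale, without TMM scaling). Libraries differed outside the groups in 2 ways. At 8 loci, picked in earlier work on these data (Mir6236 and Lars2 among them), 6 libraries had 378 to 656 summed raw CPM. The other 6 had 3484 to 9239, and they were all of the Mlkl-/- HFD group, replicates 2 and 3 of wild-type HFD, and replicate 1 of Mlkl-/- ND. The titles carry a code whose meaning is not given, 23 or 27 on ND and 25 or 29 on HFD.

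On chow, each of the 3 Mlkl-/- livers held fewer Mybph counts than any wild-type liver, at 0.346 of the level on average. Counts in the wild-type ND livers were 164, 182 and 289, or 7.01, 8.94 and 9.46 CPM on library sizes scaled by TMM (trimmed mean of M values). In the Mlkl-/- ND livers they were 62, 69 and 68, or 3.04, 3.06 and 2.69 CPM. The groups were far apart. The 3 Mlkl-/- libraries lay closer together than the wild-type ones, but all 3 values lay within the 95% counting error of each of them. The means were 8.47 ± 1.29 and 2.93 ± 0.211 CPM (SD, n = 3), and the fitted log2 difference was -1.53 ± 0.19 (SE). Exact 95% Poisson intervals, which cover counting error only, reached from 2.09 to 3.90 CPM over the Mlkl-/- ND libraries and started at 5.98 CPM in the lowest wild-type one. They describe single libraries and are no test of the genotype difference.

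These values chose the gene. As background, edgeR's quasi-likelihood test with Benjamini-Hochberg adjustment called 1 of 18098 genes (0.00553%) for genotype on ND at an adjusted p under 0.05. The count includes Mybph by the way the gene was chosen and nothing is read from it, and it was 0 with limma-voom, with the compared groups alone, and in some fits without 1 library. In the same comparison 997 genes (5.51%) had an unadjusted p under 0.05. Mlkl-/- libraries lay wholly below wild-type ones for 5.56% of genes on ND, and on both diets for 0.718%. By size alone 114 tested genes had a lower fitted difference. In bulk liver, fewer cells of a type that holds the transcript and less of it per cell cannot be told apart.

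On HFD the gap between genotypes was smaller. Wild-type HFD livers had 219, 278 and 221 counts, or 8.77, 8.44 and 10.7 CPM. Mlkl-/- HFD livers had 136, 114 and 172 counts, or 6.49, 5.49 and 7.09 CPM. The lowest wild-type library stood above the highest Mlkl-/- library, as it did for 10.8% of the 18098 genes. The means were 9.29 ± 1.20 and 6.35 ± 0.809 CPM (SD, n = 3), a ratio of 0.684. The HFD livers are those the choice of the gene did not use, and there the log2 difference was -0.54 ± 0.19 (SE), with a normal 95% interval from -0.91 to -0.18. The SE and the test rest on a spread estimated over all 12 libraries, the ND ones included. The difference did not pass the threshold after adjustment (edgeR's quasi-likelihood test, adjusted p = 0.209, unadjusted p = 0.0104). An unadjusted p under 0.05 was found for 15.5% of genes in this comparison, and 0.0276% (5 genes) were called. An exact two-sided permutation test over the 6 libraries gave p = 0.10, the smallest that 3 against 3 can give. With these 6 libraries fitted alone, the difference was again -0.54 (edgeR's quasi-likelihood test, adjusted p = 0.213, unadjusted p = 0.0136).

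From chow to HFD, the mean Mybph level was 1.10 times as high in wild-type livers and 2.17 times as high in Mlkl-/- livers. Both comparisons reuse the ND livers that chose the gene, so they are given without a test. In wild-type livers the log2 difference was 0.13 ± 0.18 (SE), and the libraries overlapped. That overlap depends on TMM scaling: on library totals alone the difference was 0.32, and the wild-type HFD libraries, at 9.74, 9.78 and 11.4 raw CPM, all stood above the wild-type ND ones, at 6.99, 8.64 and 9.00. In Mlkl-/- livers the log2 difference was 1.12 ± 0.20, and the lowest HFD library, at 5.49 CPM, stood above the highest ND library, at 3.06 CPM, as was so for 8.02% of genes. The genotype difference on HFD was 0.99 ± 0.27 (log2, SE) less negative than that on ND. This too is given without a test, because the difference on ND chose the gene. As background, edgeR called 0 of 18098 genes for a genotype difference that changed with diet. Ordered by mean, the groups ran Mlkl-/- ND, Mlkl-/- HFD, wild-type ND, wild-type HFD. On the TMM scale only the first stood clear of its neighbour in that order. Mlkl-/- HFD libraries reached 7.09 CPM and wild-type ND libraries began at 7.01 CPM, and the wild-type groups overlapped from 8.44 to 9.46 CPM.

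**Figure D2:**
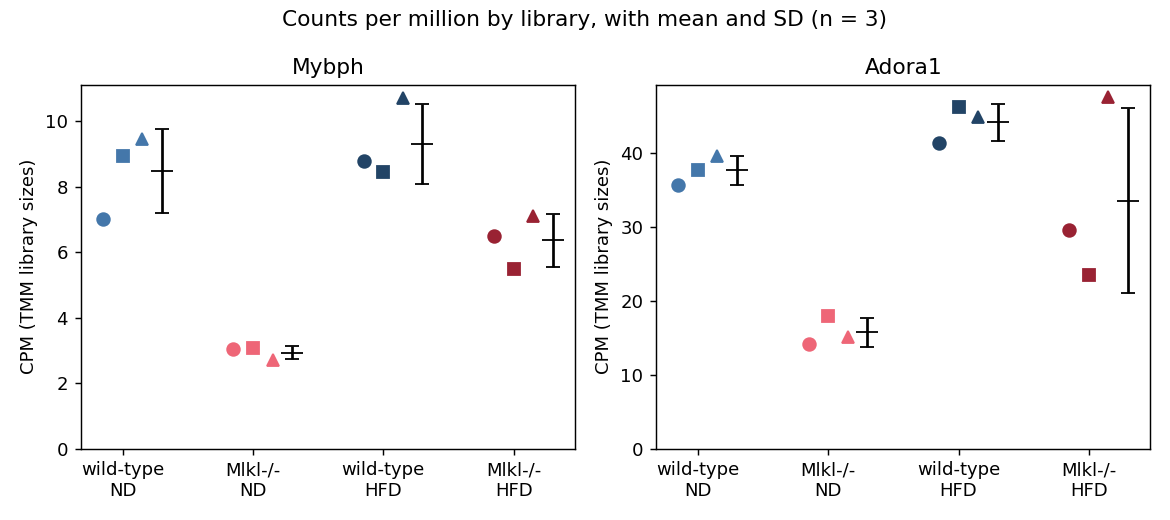
Levels in CPM (TMM library sizes) of Mybph, left, and Adora1, right, in the 12 libraries by group, with circles, squares and triangles for replicates 1, 2 and 3 and bars for the mean and SD (n = 3). Mlkl-/- ND libraries are the lowest for both genes, and Mlkl-/- HFD replicate 3 is the highest of all libraries for Adora1, at 47.5 CPM, and not for Mybph.

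Values within the title codes and at the higher 8-locus level were as follows. Within the lower title code on ND, 2 wild-type livers had a mean of 7.97 CPM and 1 Mlkl-/- liver had 3.04, and within the higher code 1 wild-type liver had 9.46 and 2 Mlkl-/- livers had 2.87. Since the genotypes do not overlap on ND, any division of those livers shows this order. On HFD the Mlkl-/- level was 0.683 of the wild-type level in the lower code and 0.743 in the higher one. Mlkl-/- ND replicate 1, with the highest 8-locus level, had 3.04 CPM beside 3.06 and 2.69 in its group. Among the 5 HFD livers at the higher 8-locus level, the 2 wild-type ones had 8.44 and 10.7 CPM and the 3 Mlkl-/- ones 5.49 to 7.09 CPM. The genotypes do not overlap on HFD either, so any division of the HFD livers also shows this order.

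Adora1 counts moved with those of Mybph. Wild-type ND livers had 834, 767 and 1208 counts and Mlkl-/- ND livers 290, 404 and 383, or 37.6 ± 1.96 against 15.8 ± 1.91 CPM (SD, n = 3). Wild-type HFD livers had 1030, 1522 and 932 counts and Mlkl-/- HFD livers 620, 488 and 1152, or 44.1 ± 2.57 against 33.5 ± 12.5 CPM. Genotypes did not overlap on ND and overlapped on HFD, where Mlkl-/- replicate 3 had 47.5 CPM and the other 2 had 29.6 and 23.5 CPM. The log2 difference between genotypes was -1.26 ± 0.20 (SE) on ND and -0.40 ± 0.20 on HFD, and the HFD one was not called (edgeR, adjusted p = 0.346). Without Mlkl-/- HFD replicate 3 the HFD difference was -0.73. From ND to HFD the Adora1 difference was 1.09 ± 0.20 in Mlkl-/- livers and 0.23 ± 0.20 in wild-type livers. These are given without a test, as for Mybph, because they reuse the ND livers. Without strand, moreover, reads of the genes in their shared part cannot be told apart.

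Each library held 4.18 to 6.70 Adora1 counts for every Mybph count. Put as a share, Mybph made up 16.4%, 19.2% and 19.3% of the counts of the pair in wild-type ND livers and 17.6%, 14.6% and 15.1% in Mlkl-/- ND livers. The shares of the 2 groups overlapped, although the counts themselves did not. The HFD shares were 17.5%, 15.4% and 19.2% (wild-type livers) and 18.0%, 18.9% and 13.0% (Mlkl-/- livers). The lowest share was that of Mlkl-/- HFD replicate 3, with an exact 95% binomial interval of 11.2% to 14.9%, which covers counting error only. Mean shares were 18.3 ± 1.62, 15.8 ± 1.62, 17.4 ± 1.87 and 16.6 ± 3.19% (SD, n = 3) in the wild-type ND, Mlkl-/- ND, wild-type HFD and Mlkl-/- HFD groups. How far the counts of either gene include reads of the other was not tested.

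**Figure D3:**
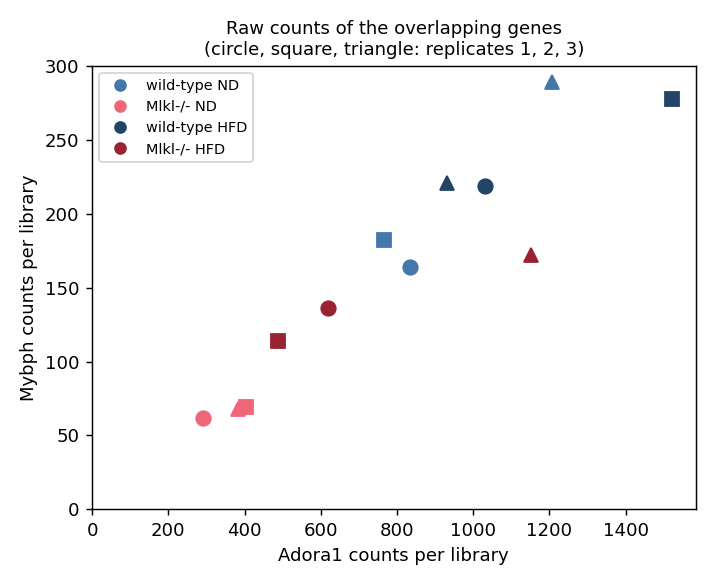
Raw counts of Mybph against raw counts of Adora1 in each of the 12 libraries, coloured by group, with circles, squares and triangles for replicates 1, 2 and 3. The points broadly rise together, with 4.18 to 6.70 Adora1 counts per Mybph count, and the 3 Mlkl-/- ND libraries have the lowest counts of both genes. Raw counts of both genes also depend on library totals, which differed.

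Adora1 was the only close neighbour with a difference on ND near that of Mybph. Within 500 kb the annotation holds 35 other genes in the table, 24 of them with a count and 14 tested. On ND, 0 of the 14 were called for genotype by edgeR and 1, Adora1, had an unadjusted p under 0.05 (5.51% of all genes had). Log2 differences ran from -1.26 to 0.17, with a median of -0.10 (0.00 over all genes). The Adora1 value reuses the ND livers that chose Mybph and may share its reads, so nothing is read from its p. Its lack of a call also depended on the processing. Adora1 was called on ND with DESeq2, with any gene of 1 count kept and with the title code as a term. It was also called without Mlkl-/- HFD replicate 2 or 3. On HFD, 0 were called and 2 had an unadjusted p under 0.05, the calcium pump gene Atp2b4 and the matrix proteoglycan gene Prelp, a share near the 15.5% of all genes. Chil1, a chitinase-like protein secreted by macrophages and other cells, ends 3267 bases before Mybph starts on the same strand. It had 0 to 40 counts per library, too few for the test, with 14 and 40 of its 79 counts in wild-type HFD replicates 1 and 2. Myog, the muscle transcription factor that lies 88757 bases beyond Mybph, and the chitinase gene Chit1 had 0 counts in the 12 libraries. Among nearby genes of general use, the adiponectin receptor Adipor1 stood at -0.10 ± 0.13 on ND and 0.08 ± 0.13 on HFD, and the histone demethylase Kdm5b at -0.19 ± 0.19 and 0.08 ± 0.19.

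Relatives of Mybph were close to absent. Mybphl, the nearest relative by name, had 5 counts in all 12 libraries and the heart form Mybpc3 also 5, and neither was tested. The slow form Mybpc1 had 213 of its 234 counts in Mlkl-/- HFD replicate 2, and the fast form Mybpc2 had 201 of its 213 there. In the other 11 libraries Mybpc1 had 0 to 10 counts and Mybpc2 0 to 4.

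That library also held the RNA of skeletal muscle. All 23 genes of a skeletal muscle list had counts in Mlkl-/- HFD replicate 2, with 13392 counts or 599 raw CPM in sum, beside 13.6 to 45.4 raw CPM in the other 11 libraries. Among them the fast myosin Myh4 had 1374 counts there and 0 to 11 elsewhere, muscle creatine kinase Ckm 1202 against 0 to 19, myoglobin Mb 909 against 0 to 19 and the skeletal actin Acta1 1536 against 34 to 111. Mybph had 114 counts in this library, the lowest of its group at 5.49 CPM. Without it the Mlkl-/- HFD mean was 6.79 CPM, or 0.731 of the wild-type mean, and the log2 difference was -0.45. On ND, where Mybph differed most, the summed level of the list was 25.3 to 45.4 raw CPM in wild-type and 15.6 to 44.6 in Mlkl-/- livers, and the ranges overlapped. Most of that sum was 1 gene, the giant thin-filament protein gene Neb, at 29.9 CPM in wild-type and 32.2 CPM in Mlkl-/- ND livers, so it says little of the other members, which were near 0 or at most 2.04 CPM in group means. Of the 6 members tested, 0 were called by edgeR for genotype on ND and 0 had an unadjusted p under 0.05. On HFD 0 were called and 3 had an unadjusted p under 0.05, as 15.5% of all genes had, in the comparison that holds the library with muscle RNA.

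**Figure D4:**
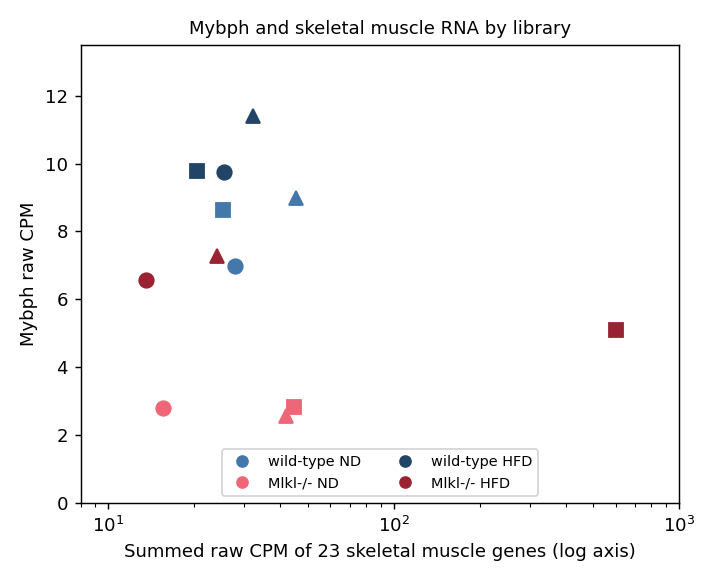
Mybph raw CPM against the summed raw CPM of 23 skeletal muscle genes (log axis) in the 12 libraries, coloured by group, with circles, squares and triangles for replicates 1, 2 and 3. Mlkl-/- HFD replicate 2 stands alone at 599 raw CPM of muscle genes with 5.10 raw CPM of Mybph, and the other libraries lie between 13.6 and 45.4.

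Regulators and partners of the muscle and cortical contractile systems were listed too. Of 10 regulators of muscle genes, Myod1, Myog and Myf5 had 0 counts in all libraries, and the 3 tested, Mef2a, Mef2c and Mef2d, gave 0 calls for genotype on ND (median 0.09, and 0 with an unadjusted p under 0.05) and 0 on HFD (median -0.12, and 1 with an unadjusted p under 0.05). Of 18 genes of the nonmuscle actomyosin system, all tested, edgeR called 0 for genotype on ND (median -0.06, 0 with an unadjusted p under 0.05). On HFD it called 0 (median -0.19, 2 with an unadjusted p under 0.05). For genotype on HFD 15.5% of all genes had an unadjusted p under 0.05, beside 5.51% on ND. The nonmuscle myosin heavy chain Myh9 stood at -0.01 ± 0.22 (log2, SE) on ND and -0.16 ± 0.22 on HFD, and the kinases Rock1 and Rock2, activators of myosin, at 0.17 ± 0.17 and -0.10 ± 0.20 on ND. Rock2 on HFD was at -0.62 ± 0.20 (adjusted p = 0.185). With diet, Myh14, another nonmuscle myosin heavy chain, rose by 0.89 ± 0.15 in wild-type livers (edgeR, adjusted p = 0.00888, in a comparison that called 4.23% of genes, 2.02% as higher), the 1 call among the 18. Without wild-type HFD replicate 2 its adjusted p was 0.0512. In Mlkl-/- livers 0 of the 18 were called for diet, where 0.359% of all genes were, and 2 had an unadjusted p under 0.05, as 13.6% of all genes had. Cardiac muscle genes, 10 in the list, summed to 0.593 to 4.25 raw CPM, and smooth muscle genes, 8 in the list, to 15.3 to 40.7. Of both lists 0 tested members were called for genotype on ND or HFD, and 0 had an unadjusted p under 0.05.

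Among markers of the other cell types a liver sample can hold, 2 genes of the sinusoidal endothelium were called lower in Mlkl-/- than in wild-type livers on HFD. No marker passed the test for genotype on ND. On ND edgeR called 0 tested members of the lists of hepatocyte (median -0.15), bile duct (0.04), Kupffer cell (0.18), recruited macrophage (0.33), sinusoidal endothelium (-0.09), stellate cell (0.10), lymphocyte (-0.78), neutrophil (0.99), adipocyte (-1.52) and pancreatic acinar (0.07) genes for genotype. Unadjusted p-values under 0.05, which 5.51% of all genes had, were found for 1 of 9 hepatocyte, 1 of 4 neutrophil and 2 of 8 adipocyte genes. All 8 adipocyte genes and all 6 tested lymphocyte genes had negative values on ND. Several were near the limit of detection, with the adipocyte hormone gene Adipoq at 0.324 CPM in wild-type and 0.0969 CPM in Mlkl-/- livers. Adipocyte genes with higher levels in wild-type ND livers were lower in Mlkl-/- ND livers too. Means were 17.3 and 7.08 CPM for Cidec, 3.32 and 0.451 CPM for Cfd, and 10.1 and 8.77 CPM for Lipe. The summed adipocyte level, 1772 to 1855 raw CPM in wild-type and 895 to 1978 in Mlkl-/- ND livers, overlapped and was mostly that of Car3, which hepatocytes also express. The part of these cells in the Mybph values was not tested. On HFD the called members were the endothelial Fc receptor Fcgr2b (-1.21 ± 0.18, adjusted p = 0.0353) and the nuclease Dnase1l3 (-1.17 ± 0.15, adjusted p = 0.0166), in a comparison that called 0.0221% of genes as lower. All 8 endothelial genes had negative values, with a median of -1.03 (0.01 over all genes), and 7 had an unadjusted p under 0.05, against 15.5% of all genes. The Fcgr2b call was lost in 5 of 9 alternatives (adjusted p from 0.0526 to 0.0708) and without wild-type ND replicate 1 or 2, wild-type HFD replicate 1 or 2, or Mlkl-/- HFD replicate 1 or 2 (0.0574 to 0.172). The Dnase1l3 call was lost without the same 4 HFD libraries (0.0833 to 0.131). The summed level of that list was 242 to 383 raw CPM in wild-type and 112 to 152 in Mlkl-/- HFD livers, without overlap. Kupffer cell genes (0 of 7 called, 5 with an unadjusted p under 0.05) summed to 213 to 302 against 82.0 to 184 raw CPM, with a median of -0.86. Stellate cell genes (0 of 10 called, 7 with an unadjusted p under 0.05) summed to 220 to 470 against 171 to 213, with a median of -0.89. Recruited macrophage genes (0 of 8 called, 7 with an unadjusted p under 0.05) had a median of -1.57, and their summed level, 28.9 to 78.6 against 17.1 to 34.9 raw CPM, overlapped. Mybph was lower in the same HFD livers by 0.54 on the log2 scale, and the part of these cells in that difference was not tested. On ND the summed endothelial level was 162 to 241 raw CPM in wild-type and 137 to 213 in Mlkl-/- livers, and the ranges overlapped. The remaining lists had 0 calls for genotype on HFD, with medians of 0.48 (hepatocyte), -0.61 (bile duct), 0.09 (lymphocyte), -0.37 (neutrophil), -0.99 (adipocyte) and 0.68 (pancreatic acinar). Unadjusted p-values under 0.05 there were found for 5 of 9 hepatocyte, 1 of 7 bile duct and 0 of 6 lymphocyte genes tested. They were found for 0 of 4 neutrophil, 1 of 8 adipocyte and 1 of 2 pancreatic acinar genes, against 15.5% of all genes.

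Adora1 was also the gene whose pattern over the 12 libraries was most like that of Mybph. Likeness was measured as Pearson's r of log2 CPM (prior count 2) among 12047 tested genes whose mean level reached 1 CPM, without predicted or clone-named genes, and it is a description with no test. Over all these genes r ran from -0.91 to 0.95, with a median of 0.01, and 4 exceeded 0.9. Among the highest were Adora1 (0.95), the ADP receptor gene P2ry1 (0.93), Pm20d1, an enzyme that makes N-acyl amino acids (0.90), the immediate-early nuclear receptor Nr4a1 (0.90), the peroxisomal thioesterase Acot5 (0.90), Pts, an enzyme of tetrahydrobiopterin synthesis (0.89), and Serpina6, the corticosteroid-binding globulin (0.89). Acot5 belongs to a family of near-identical copies whose reads may be shared, so its counts are uncertain. By Spearman's rank correlation Nr4a1 was first of the 12047 (0.91) and Adora1 the 17th (0.80).

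The likeness rests largely on the Mlkl-/- ND livers, where most of these genes were low. P2ry1 had 9.44, 8.54 and 11.9 CPM in wild-type ND livers against 5.06, 5.32 and 3.83 CPM in Mlkl-/- ND livers. Nr4a1 had 1.20, 2.85 and 1.83 against 0.540, 0.842 and 0.671 CPM. In both genes the genotypes did not overlap on ND, and this is what the ranking by likeness selects. Acot5 had means of 6.46 ± 0.922 and 2.23 ± 0.646 CPM and Serpina6 of 168 ± 44.9 and 68.7 ± 27.9 CPM (SD, n = 3) in these groups. Pm20d1, at 84.4 ± 0.466 and 68.3 ± 0.919 CPM, and Pts, at 34.5 ± 2.72 and 26.8 ± 0.605 CPM, differed less. Without the 2 libraries farthest from the median, Mlkl-/- ND replicates 1 and 3, r for Adora1 was 0.89. Without the 3 Mlkl-/- ND libraries it was 0.74 over 9 libraries, beside 0.73 for Nr4a1, 0.56 for P2ry1 and 0.38 to 0.55 for the other 4 named. Over deviations from the 4 group means r was 0.56 for Adora1, 0.67 for Pm20d1 and 0.60 for Nr4a1, and 0.17 to 0.38 for the other 4 named. By these deviations Adora1 ranked 435th of the 12047 genes, Pm20d1 116th and Nr4a1 338th.

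The HFD differences between genotypes follow as a description, since the genes were ranked over all 12 libraries, the HFD ones included. P2ry1 stood at -0.32 ± 0.19 (log2, SE), Acot5 at -0.41 ± 0.26 and Serpina6 at -0.27 ± 0.25, with Pm20d1 at -0.07 ± 0.11 and Pts at -0.15 ± 0.12. Nr4a1 stood at -0.63 ± 0.38, beside -0.54 ± 0.19 for Mybph.

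The most opposite patterns were those of Drg1, a GTP-binding protein (r = -0.91), the peroxisomal membrane protein Pxmp4 (-0.90), the fatty acid binding protein Fabp5 (-0.90) and Ppip5k2, an inositol pyrophosphate kinase (-0.85). Fabp5 had 28.6 ± 3.83 CPM in wild-type ND and 82.7 ± 23.9 CPM in Mlkl-/- ND livers, and 19.6 ± 8.46 and 33.8 ± 18.2 CPM on HFD (SD, n = 3). The other 3 differed by 0.25 to 0.33 on the log2 scale between genotypes on ND.

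**Figure D5:**
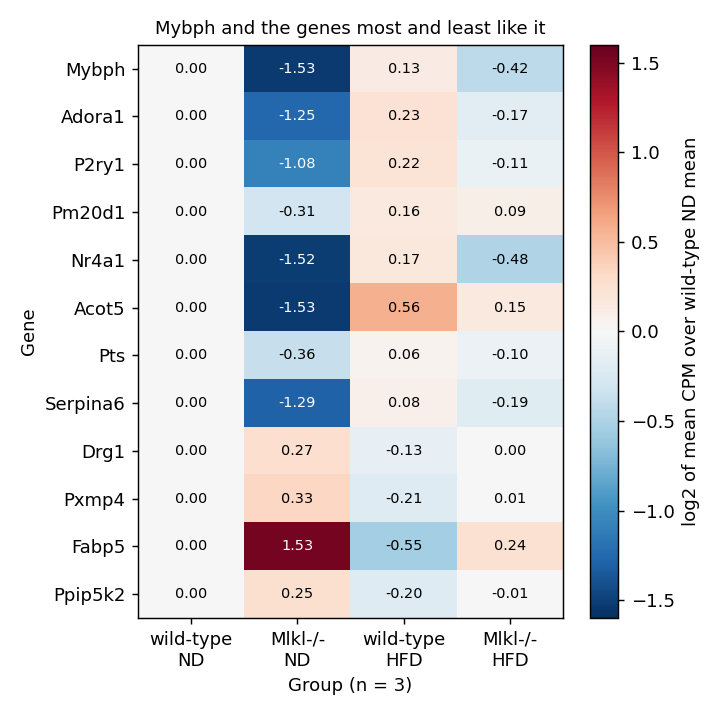
Mean CPM of each group (n = 3) as log2 over the wild-type ND mean, for Mybph, 7 of the 8 genes with the highest and the 4 with the lowest Pearson's r with Mybph over 12 libraries. Rows are genes and columns groups, with blue lower and red higher than wild-type ND; the Mlkl-/- ND column is the most strongly coloured for all genes shown.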

How the data were processed

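Gene expression was measured in 12 mouse livers. Per the labels' protocols, RNA was extracted with Trizol and RNeasy columns, and QuantSeq 3' libraries were sequenced on a NextSeq instrument. The submitters' processing notes name cutadapt 1.9, HISAT2, featureCounts, limma and mm10. The sources used here do not give the strand setting, the treatment of ambiguous reads or the annotation. The authors deposited raw counts per Ensembl gene, and positions come from GENCODE M21.

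Groups were read from genotype and diet labels, and columns from animal numbers in the titles. The labels number the animals separately, and p-values measure the spread between these samples. Mybph, the gene lists and the naming rule were chosen with earlier results of these data known. All 12 libraries were fitted in edgeR 4.0.16 (R 4.3.3), with filterByExpr (minimum 10 counts, 15 in total, leaving 18098 genes), TMM scaling, 1 mean per group and robust quasi-likelihood tests, adjusted by Benjamini and Hochberg. SE is the absolute log2 difference over the root of F. The method was tested on simulated data. The text names Mlkl, Mybph, its family, genes within 500 kb, called or abundant list members, and the 8 most and 4 least alike genes, 1 of which is not reported here. Some genes that the rule takes are summarised by counts only. Alternatives were RLE factors, library totals, other filters, DESeq2 1.42.0, limma-voom (limma 3.58.1), no robust estimation, the compared groups alone, the title code as a term and leaving out each library. Library totals were 19435391 to 32120426 counts. For Mybph, with 62 to 69 counts in Mlkl-/- ND livers, counting error was not small beside the spread between those livers. Poisson and binomial intervals cover counting error only.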

Additional observations from a re-analysis of the deposited data

How the results depend on the processing

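No paired analysis was possible because the labels give no replicate number that pairs single livers across groups. The title codes, which genotypes share in unequal numbers of livers, entered as a term. The log2 genotype difference of Mybph on HFD stayed negative and uncalled under all 9 alternatives (-0.70 to -0.50) and in all 12 fits without 1 library (-0.63 to -0.43), with adjusted p from 0.0884 (library totals only) to 0.509. On ND it was -1.59 to -1.53 and -1.65 to -1.46. The diet difference was 0.09 to 0.32 and 0.02 to 0.23 in wild-type livers, and 1.12 to 1.21 and 1.03 to 1.23 in Mlkl-/- livers.

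Counts of called genes, which serve as background, moved far more, and the cause was not tested. For genotype on ND, 1 gene in the fit reported, they were 10 with any gene of 1 count kept, 49 with DESeq2, 0 with limma-voom, 2 with the title code as a term, 0 with the compared groups alone, and 0 to 6 without 1 library. For genotype on HFD, 5 genes, they were 36 with library totals, 124 with any gene of 1 count, 2 with 5 CPM in 3 libraries, 398 with DESeq2, 3 without robust estimation, 3 with the title code, 2 with the compared groups alone and 0 to 189 without 1 library. For diet in wild-type livers, 766 genes, they were 1465 with DESeq2, 1431 with the compared groups alone and 63 to 1233 without 1 library. For diet in Mlkl-/- livers, 65 genes, they were 100 with library totals, 171 with any gene of 1 count, 514 with DESeq2, 8 with the compared groups alone and 13 to 729 without 1 library.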
